A study of Mus musculus with 78 samples.

Results

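Rab GTPases are small proteins on the outer face of membranes that decide where a transport vesicle docks and fuses, each on its own set of compartments. Their genes were taken as every gene on the array with a single symbol made of Rab, a number and at most 1 small letter, which gave 59 genes of the 19938 measured in these mouse livers. Where a gene had several probe sets, the one whose mean over the 78 arrays was highest stood for it. This choice arose for Rab2a, Rab5b and Rab11b, which had 2 each.

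The livers came from 2 experiments on Npc1, the membrane protein that moves cholesterol out of late endosomes and lysosomes. The age series held Npc1-/- and Npc1+/+ female littermates of the line BALB/cNctr-Npc1m1N/J, killed at 6 ages spaced evenly between 1 week and 11 weeks, with 4 mice in each of the 12 groups. The Npc1-/- mice lacked the protein in every tissue, so the liver was not the only organ affected. The 12-week set held BALB/cJ females in 6 groups of 5 mice: Npc1 oligo, control oligo, Npc1 oligo + NAC, control oligo + NAC, fasted overnight, and untreated. The oligos are antisense oligonucleotides, NAC is the antioxidant N-acetylcysteine, and both were given for 4 weeks from 8 weeks of age. Each mouse gave 1 array, values are on a log2 scale, and every difference below is a difference of log2 group means with its standard error.

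A Rab protein works as a switch. Exchange factors, many with a DENN domain, load it with GTP, after which it recruits effector proteins to the membrane, and GTPase-activating proteins, many with a TBC domain, end the signal. In cells without NPC1, cholesterol and other lipids fill late endosomes and lysosomes, the compartments of Rab7 and Rab9, and the storage is most visible in liver macrophages and hepatocytes.

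Npc1 itself followed the labels. At 11 weeks it read 9.02, 8.65, 8.76 and 8.41 in Npc1-/- livers, against 10.54, 10.39, 9.99 and 10.15 in Npc1+/+ livers, and the genotypes did not overlap at any of the 6 ages. The averaged difference was -1.35 ± 0.06 (adjusted p = 3.92e-22); where its probes lie relative to the mutation was not examined here. In the 12-week set it averaged 7.25 ± 0.22 under Npc1 oligo and 10.22 ± 0.14 under control oligo (SD, n = 5 each). It was also lower with NAC under control oligo, at 9.19 ± 0.46 in control oligo + NAC livers, a difference of -1.03 ± 0.15 from control oligo livers (adjusted p = 6.05e-05).

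The arrays were of liver: 9 hepatocyte markers had group means between 11.6 and 13.7 in each of the 18 groups. Pancreas markers stood at 8.31 and 8.29 in mice 1 and 2 of the 3-week Npc1+/+ group, against 4.98 and 4.94 in the group's other mice. Skeletal muscle markers stood at 8.92 in mouse 3 of the 1-week Npc1-/- group and at 5.46 to 5.62 in the other 3. These 3 arrays are called those with signal of other organs below. A further 7 arrays had lower but raised levels, more than 1 above the median over the 78 arrays: pancreas markers stood at 5.96 to 6.23 in 6 (1-week Npc1-/- mouse 2, 5-week Npc1-/- mouse 4, Npc1+/+ mouse 1 at 5 weeks and mouse 4 at 9 and 11 weeks, and fasted mouse 3), against a median of 4.94, and muscle markers at 6.55 in 7-week Npc1+/+ mouse 3, against a median of 5.48. Calls of the largest differences that were lost without all 10 are named beside them. Mice 3 and 4 of the 1-week Npc1+/+ group are numbered apart from the rest in the labels. In bulk liver, fewer cells of a type and less RNA per cell cannot be told apart.

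Of the 59 Rab genes, 45 passed the filter on low values in the age series and 43 in the 12-week set. The 14 that did not pass in the age series were Rab3a, Rab3b, Rab3c, Rab15, Rab19, Rab25, Rab26, Rab27b, Rab33a, Rab36, Rab38, Rab39, Rab39b and Rab42, with means over all arrays of 3.16 to 5.22, below the 5.54 that was the median of every value in the table. Several of these are known from nerve, gland or pigment cells, among them the Rab3 and Rab27b proteins of regulated secretion and Rab38 of pigment granules. Rab9b and Rab37 additionally did not pass in the 12-week set. Levels of different genes come from different probes and are not set against each other here.

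Across the 18 groups the Rab genes varied by different amounts. The highest and lowest group means of a gene differed by more than 1 for 8 of the 45 tested genes and by less than 0.5 for 21. How many of all tested genes have such ranges was not counted. The widest ranges were those of Rab8b (2.12), Rab7b (2.10), Rab27a (2.07), Rab32 (1.73), Rab30 (1.58), Rab34 (1.40), Rab31 (1.23) and Rab4a (1.05). The highest mean of Rab8b, Rab7b, Rab31 and Rab4a was in 11-week Npc1-/- livers, and the lowest mean of Rab30 was in the same group.

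**Figure D1:**
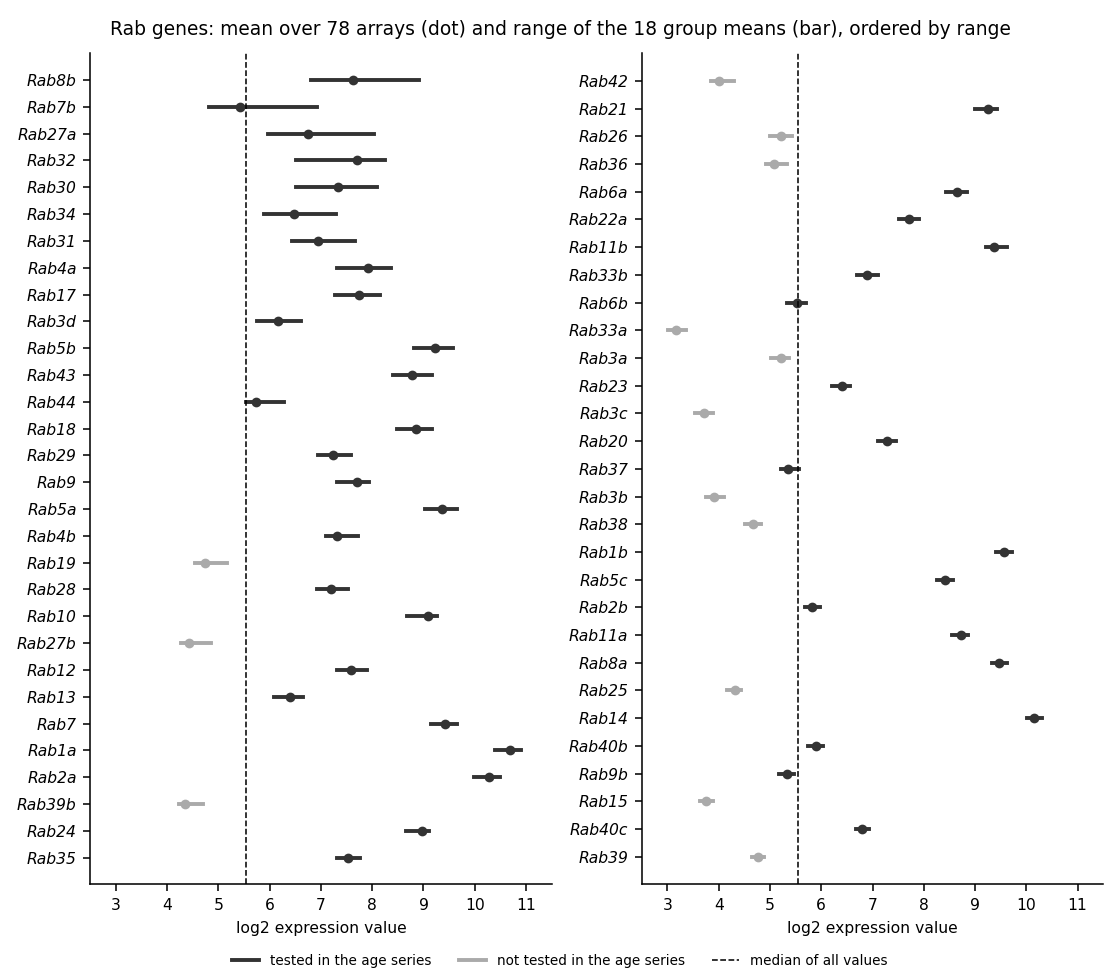
Each row is 1 Rab gene, and the x axes give the log2 expression value; the dot is the mean over 78 arrays, the bar spans the lowest to the highest of the 18 group means, and the dashed line is the median of all values, 5.54. Genes are ordered by the length of the bar, widest at the top left (Rab8b, 2.12); grey genes were not tested in the age series, and positions of different genes on the x axis are not comparable.

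The promoters of 3 members are shown because they lie at the starts of genes that rose in Npc1-/- livers below, Rab8b and Rab31 by the most among the members the promoter table holds, and Rab21 with a motif of lysosomal genes. Each runs 250 bases before to 50 after the gene's start, from RefSeq on GRCm38.p6, on the minus strand, at chr9:66919656-66919955 for Rab8b, chr17:65772703-65773002 for Rab31 and chr10:115315542-115315841 for Rab21. Capitals mark TCACGTGA, the palindromic E-box form that transcription factors of lysosomal genes bind.
Rab8b: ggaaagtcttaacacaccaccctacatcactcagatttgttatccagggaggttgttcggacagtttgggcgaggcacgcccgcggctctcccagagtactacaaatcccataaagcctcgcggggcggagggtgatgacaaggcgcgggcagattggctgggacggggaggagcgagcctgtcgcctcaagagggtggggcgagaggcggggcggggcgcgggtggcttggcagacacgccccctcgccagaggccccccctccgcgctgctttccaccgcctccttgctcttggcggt
Rab31: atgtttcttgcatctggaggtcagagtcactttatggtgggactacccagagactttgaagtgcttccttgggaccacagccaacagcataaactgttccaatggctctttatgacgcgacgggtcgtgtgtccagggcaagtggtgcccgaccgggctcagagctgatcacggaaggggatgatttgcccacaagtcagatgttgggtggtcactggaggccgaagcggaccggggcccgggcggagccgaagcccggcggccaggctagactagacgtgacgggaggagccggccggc
Rab21: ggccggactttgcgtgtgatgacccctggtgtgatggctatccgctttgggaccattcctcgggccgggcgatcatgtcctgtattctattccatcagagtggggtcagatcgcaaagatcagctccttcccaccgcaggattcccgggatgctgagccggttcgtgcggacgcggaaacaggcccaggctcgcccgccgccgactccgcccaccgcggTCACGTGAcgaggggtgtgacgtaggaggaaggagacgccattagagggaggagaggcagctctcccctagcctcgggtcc

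A set of 3 motifs was searched on both strands: the E-box core CACGTG, its longer form TCACGTGA, which contains it, and GAGGAAGT, a core of the macrophage factor PU.1. The table held 60 promoters of 48 members. CACGTG stood in 6 of these (Rab5a, Rab20, Rab21, Rab23, Rab24 and Rab27a), 10.0% of them, against 7.15% of all 32851 promoters in the table. TCACGTGA stood in 3 (Rab5a, Rab21 and Rab24), 5.0% against 0.974%, and GAGGAAGT in 2 (Rab2b and Rab32), 3.33% against 3.20%. The 3 members with TCACGTGA did not move together in Npc1-/- livers: on average Rab21 was higher and Rab5a lower, and Rab24 passed at no age. In Rab21 the first base of TCACGTGA lies 31 bases before the gene's start. None of the 3 motifs stood in the window of Rab8b or Rab31, which says only that those letters are not there.

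Loss of Npc1 was set against wild type at each age. Averaged over the 6 ages, 21 of the 59 Rab genes passed the test, 15 higher and 6 lower in Npc1-/- livers. That is 21 of 45 tested, where 52.6% of all genes tested passed, 26.0% higher and 26.6% lower. The median difference over the 59 was 0.03, and -0.01 over all genes on the array. At 1 week 3 members passed, 1 higher and 2 lower, where 5.69% of tested genes did (2.91% higher, 2.78% lower). At 3 weeks 8 passed, 6 higher and 2 lower, where 15.7% did (8.90% higher, 6.84% lower). The 5-week livers gave 6, each higher in Npc1-/-, where 12.6% passed (9.69% higher, 2.88% lower). The 7-week livers gave 8, with 5 higher and 3 lower, where 25.3% passed (14.3% higher, 11.0% lower). For 9 weeks the count was 13, 10 higher and 3 lower, beside 33.2% of tested genes (17.6% higher, 15.5% lower). For 11 weeks it was 14, 11 higher and 3 lower, beside 39.3% (18.8% higher, 20.5% lower). Of the 45 tested members 33.3% were higher and 13.3% lower on average, 22.2% and 6.67% at 9 weeks, and 24.4% and 6.67% at 11 weeks. The lower share was thus below that of all genes in these comparisons, while at 1 week it was above, at 4.44% against 2.78%. Whether the members differ from other genes in this was not tested. In all, 24 members passed at 1 or more ages, 4 of them higher at each of 5 ages. The shares of all tested genes that did so were not counted, so these 2 counts cannot be set against other genes.

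**Figure D2:**
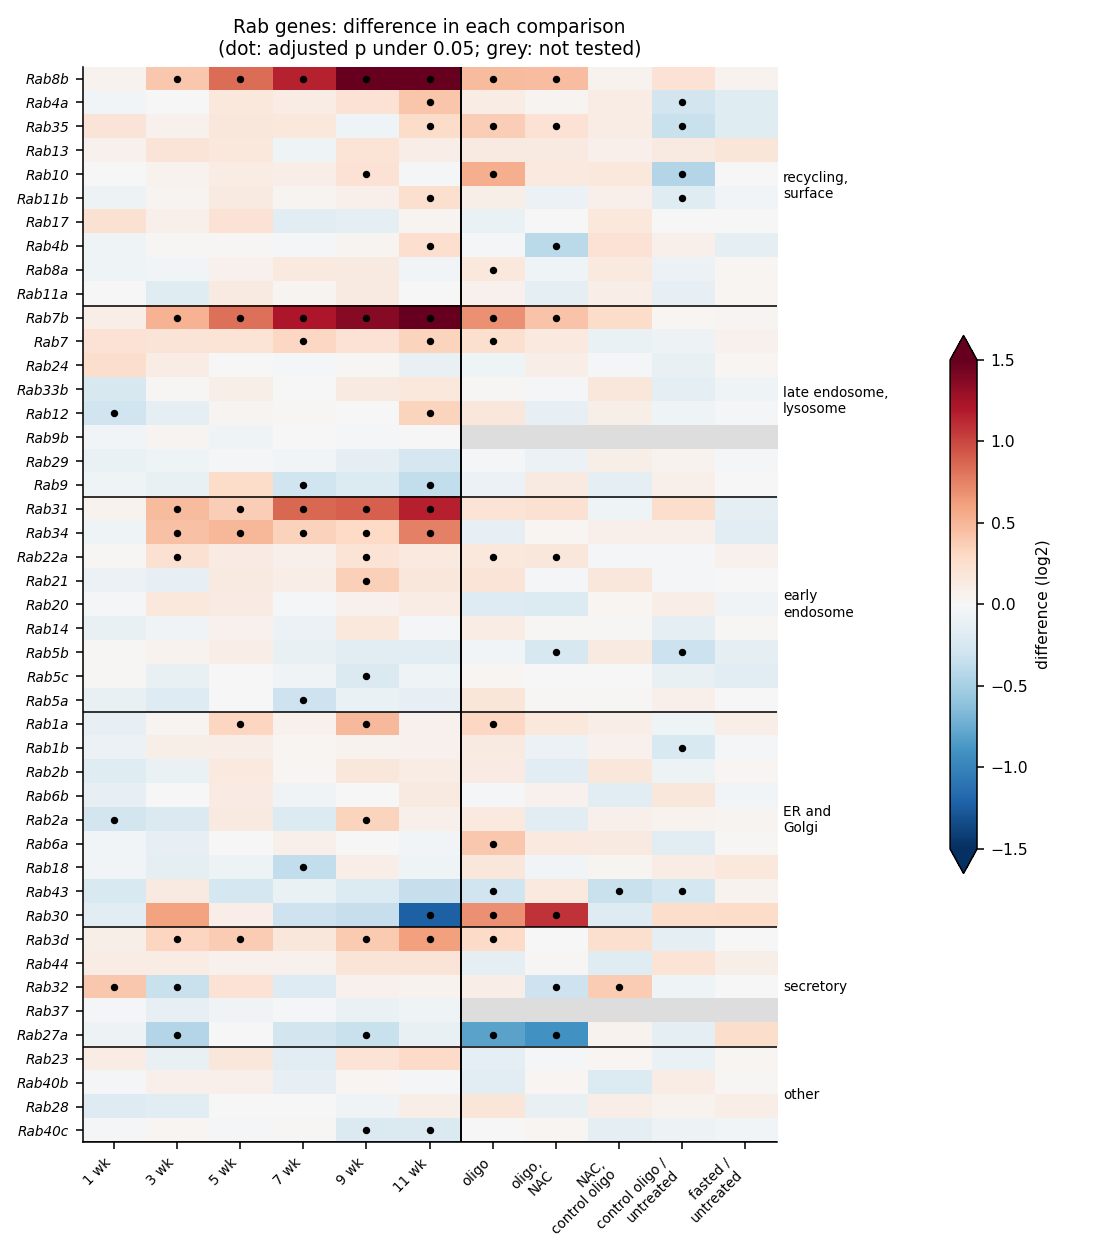
Rows are the 45 Rab genes tested in the age series, grouped by the compartment they serve; columns are comparisons, with Npc1-/- minus Npc1+/+ at 6 ages left of the line and the 12-week set right of it (oligo: Npc1 oligo minus control oligo). Colour gives the log2 difference, drawn to at most 1.5 in size, dots mark adjusted p under 0.05, and grey cells were not tested; Rab8b, Rab7b, Rab31 and Rab34 carry dots from 3 to 11 weeks.

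Among the 12 Rab genes of recycling and delivery to the cell surface, 10 were tested. In the averaged comparison 6 passed and were higher in Npc1-/- livers: Rab8b, Rab4a, Rab35, Rab13, Rab10 and Rab11b. Of all tested genes 52.6% passed there, 26.0% higher and 26.6% lower, and whether compartments differ was not tested. Rab8b, which guides vesicles from the recycling and Golgi compartments to the plasma membrane, had the largest averaged difference of the family, 1.05 ± 0.05 (adjusted p = 8.19e-22). At 11 weeks it read 8.76, 8.89, 9.11 and 8.94 in Npc1-/- livers, against 6.92, 6.90, 6.35 and 7.05 in Npc1+/+ livers. Every Npc1-/- mouse was above every Npc1+/+ mouse from 3 weeks on.

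The Rab8b difference grew with age. At 1 week the groups overlapped, with means of 8.20 ± 0.08 in Npc1-/- livers and 8.15 ± 0.17 in Npc1+/+ livers (SD, n = 4 each). The difference was 0.40 ± 0.13 at 3 weeks and 0.83 ± 0.13 at 5 weeks. It reached 1.15 ± 0.13 in 7-week livers, 1.72 ± 0.13 in 9-week livers and 2.12 ± 0.13 in 11-week livers, where the value was 4.34-fold higher (adjusted p = 1.67e-18). Its slope was 0.21 ± 0.01 per week (adjusted p = 2.31e-15). The group means moved apart in both directions: the mean was 7.71 at 3 weeks and 8.92 at 11 weeks in Npc1-/- livers, against 7.31 at 3 weeks and 6.81 at 11 weeks in Npc1+/+ livers. The 3-week call rested on few arrays: it was lost without mouse 4 of the Npc1-/- group or mouse 2 or 3 of the Npc1+/+ group (adjusted p up to 0.0978), and without the 3 arrays with signal of other organs. Without all 10 arrays with raised pancreas or muscle markers only 1 member, Rab34, passed at 3 weeks, where the value for Rab8b was 0.43 (adjusted p = 0.0646).

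The remaining recycling genes moved by less. Rab4a, which returns receptors quickly from early endosomes to the surface, was higher by 0.14 ± 0.04 on average (adjusted p = 0.00202). At 11 weeks it read 8.24, 8.22, 8.57 and 8.41 in Npc1-/- livers, against 7.94, 8.03, 8.01 and 7.80 in Npc1+/+ livers, without overlap. Rab35, another fast recycling protein, and Rab4b were higher at 11 weeks by 0.27 ± 0.08 and 0.25 ± 0.09, with overlapping groups. Rab11b, of the slow recycling endosome, was higher by 0.24 ± 0.07 at 11 weeks; its second probe set gave 0.26 ± 0.20. Rab10, which carries cargo to the basolateral surface, rose at 9 weeks (0.22 ± 0.07, adjusted p = 0.0143) and passed at no other age. Rab8a, the close relative of Rab8b, passed at none of the 6 ages, nor did Rab11a, Rab13 or Rab17, and Rab15 and Rab25 were not tested.

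Of the 9 late endosome, lysosome and autophagy genes, 8 were tested. In the averaged comparison 3 passed, where 52.6% of all tested genes did: Rab7b and Rab7 higher, Rab9 lower. Rab7b, which in human cells works between late endosomes and the Golgi and is known from monocytes and macrophages, was higher by 0.99 ± 0.05 (adjusted p = 1.4e-21). Its 11-week values were 6.62, 6.86, 7.10 and 7.11 in Npc1-/- livers, against 5.05, 4.90, 5.02 and 5.05 in Npc1+/+ livers, a difference of 1.92 ± 0.12 or 3.77-fold (adjusted p = 1.21e-17). The groups overlapped at 1 week and were apart at each later age. Rab7b passed the filter on low values only through the livers in which it is high: 16 of 24 Npc1-/- arrays and 0 of 24 Npc1+/+ arrays lay above 5.54. With no filter its averaged adjusted p was 7.04e-22.

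The Rab7b difference was 0.10 ± 0.12 at 1 week, 0.52 ± 0.12 at 3 weeks and 0.82 ± 0.12 at 5 weeks. It was 1.21 ± 0.12 in 7-week and 1.36 ± 0.12 in 9-week livers, with a slope of 0.17 ± 0.01 per week (adjusted p = 3.02e-13). The 3-week call was lost without the 10 arrays with raised pancreas or muscle markers (adjusted p = 0.0656). Npc1+/+ means stayed between 4.82 and 5.23 throughout, under that median value of the table. No detection calls were used, so how well a fold against such low values holds is not known. Npc1-/- means were 5.33 at 1 week, 5.65 at 5 weeks and 6.92 at 11 weeks.

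Rab7, the main Rab of traffic from late endosomes to lysosomes, was higher by a small and steady amount, 0.25 ± 0.04 on average (adjusted p = 1.14e-07). Its differences at the 6 ages lay between 0.19 and 0.34, and it passed at 7 weeks (0.31 ± 0.09) and 11 weeks (0.34 ± 0.09). The 11-week values of Rab7 were 9.65, 9.53, 9.63 and 9.81 in Npc1-/- livers, against 9.47, 9.35, 9.14 and 9.32 in Npc1+/+ livers. Rab9, which returns mannose 6-phosphate receptors from late endosomes to the Golgi, went the other way, lower with a difference of -0.13 ± 0.04 on average (adjusted p = 0.0106). It was lower at 7 weeks with a difference of -0.30 ± 0.10, with overlap, and at 11 weeks with a difference of -0.36 ± 0.10 (adjusted p = 0.00424). At 11 weeks Rab9 read 7.38, 7.55, 7.56 and 7.60 in Npc1-/- livers, against 7.78, 7.79, 7.85 and 8.14 in Npc1+/+ livers. Rab12, which sends transferrin receptors to lysosomes, was lower at 1 week (-0.30 ± 0.09) and higher at 11 weeks (0.34 ± 0.09), and its slope was 0.05 ± 0.01 per week (adjusted p = 0.000195). Rab24, Rab29, Rab33b and Rab9b passed at no age.

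All 9 early endosome and uptake genes were tested. On average 5 passed, where 52.6% of all tested genes did: Rab31, Rab34, Rab22a and Rab21 higher, Rab5a lower. Rab31, a relative of Rab22a that carries mannose 6-phosphate receptors from the Golgi to endosomes, was higher by 0.64 ± 0.05 (adjusted p = 4.96e-16). In the oldest mice it read 7.74, 7.52, 7.67 and 7.73 in Npc1-/- livers, against 6.67, 6.49, 6.29 and 6.55 in Npc1+/+ livers, a 2.24-fold higher value. The difference was 0.06 ± 0.11 at 1 week, 0.48 ± 0.11 at 3 weeks and 0.37 ± 0.11 at 5 weeks. It was 0.87 ± 0.11 in 7-week, 0.89 ± 0.11 in 9-week and 1.17 ± 0.11 in 11-week livers. The groups overlapped at 1 and 5 weeks only. The 5-week call was lost without mouse 1 or 4 of the Npc1-/- group or mouse 3 of the Npc1+/+ group (adjusted p up to 0.105), and the 3-week call without the 3 arrays with signal of other organs. Without all 10 arrays with raised pancreas or muscle markers neither call held (adjusted p = 0.072 at 5 weeks and 0.0808 at 3 weeks).

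Rab34, which acts in macropinocytosis, lysosome positioning and cilium formation, was higher by 0.38 ± 0.04 on average (adjusted p = 3.38e-11) and passed at each age from 3 weeks. In 11-week mice it read 6.71, 6.61, 6.65 and 6.61 in Npc1-/- livers, against 5.84, 6.04, 5.86 and 5.82 in Npc1+/+ livers, a difference of 0.76 ± 0.10. Its mean was lower at 11 weeks than at 1 week in both genotypes, at 7.23 at 1 week and 6.65 at 11 weeks in Npc1-/- livers, against 7.29 at 1 week and 5.89 at 11 weeks in Npc1+/+ livers.

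Rab22a, of early endosome sorting, was higher by 0.13 ± 0.03 on average (adjusted p = 0.000148), and Rab21, of integrin uptake, by 0.35 ± 0.09 at 9 weeks (adjusted p = 0.00127). Rab5a, the Rab of early endosome fusion, was lower with a difference of -0.14 ± 0.04 on average (adjusted p = 0.00145) and with a difference of -0.31 ± 0.09 at 7 weeks, a call that was lost without mouse 4 of the 7-week Npc1+/+ group (adjusted p = 0.0818). Its relatives differed little: Rab5c was lower at 9 weeks with a difference of -0.21 ± 0.08, and Rab5b, Rab14 and Rab20 passed at no age.

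**Figure D3:**
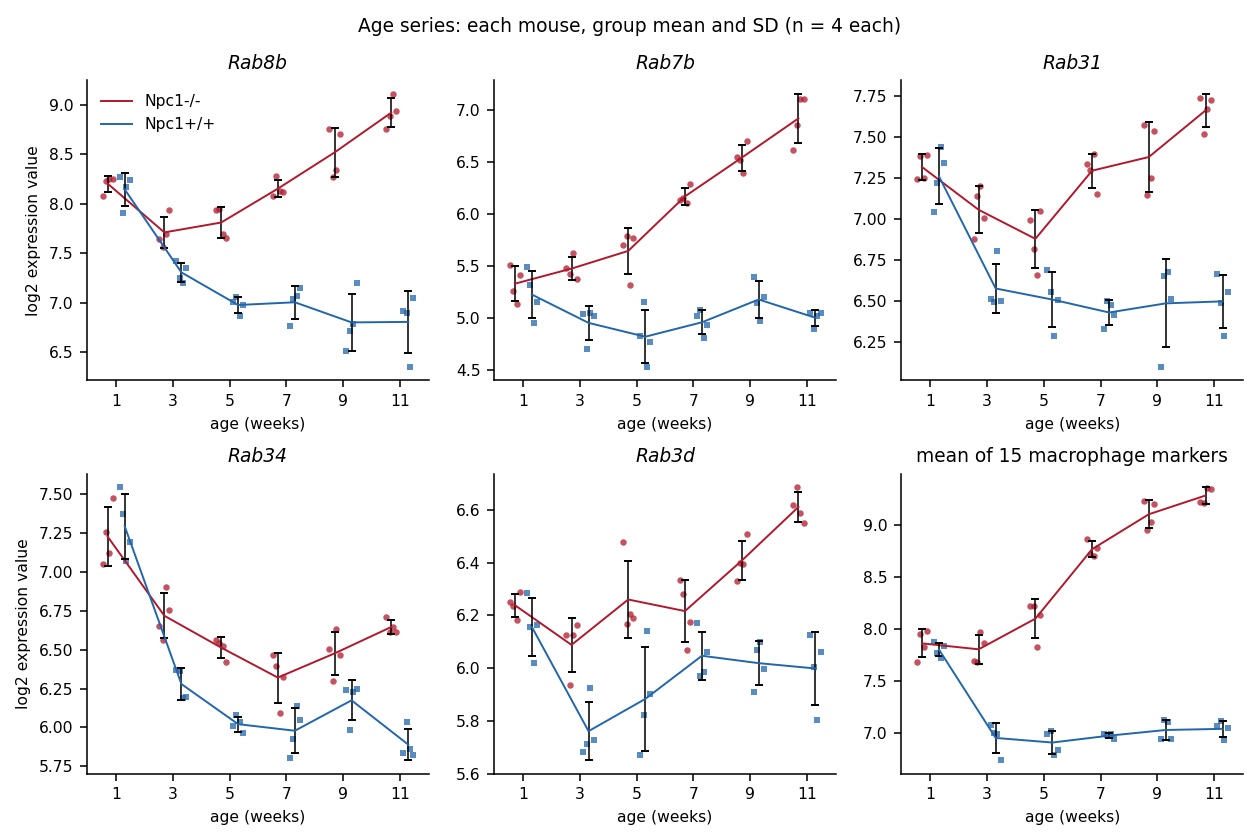
The x axes give age in weeks and the y axes the log2 expression value of Rab8b, Rab7b, Rab31, Rab34 and Rab3d, and the mean log2 value of 15 macrophage markers, in each mouse (Npc1-/- red circles, Npc1+/+ blue squares) with group mean and SD (n = 4 each). At 1 week the genotypes overlap in all 6 panels; at 11 weeks every Npc1-/- mouse lies above every Npc1+/+ mouse.

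Of the 13 endoplasmic reticulum and Golgi genes, 9 were tested. On average 4 passed, where 52.6% of all tested genes did: Rab1a higher, and Rab30, Rab43 and Rab18 lower. Rab1a, of transport from the endoplasmic reticulum to the Golgi, was higher at 5 weeks by 0.32 ± 0.09 and at 9 weeks by 0.49 ± 0.09. At 9 weeks it read 11.02, 10.88, 10.87 and 10.74 in Npc1-/- livers, against 10.34, 10.50, 10.29 and 10.43 in Npc1+/+ livers. At 11 weeks its groups overlapped, so the difference did not grow steadily. Rab2a, its neighbour in that pathway, was lower at 1 week with a difference of -0.27 ± 0.08 and higher at 9 weeks by 0.34 ± 0.08, while its second probe set gave -0.08 ± 0.08 at 1 week. Rab18, linked to lipid droplets, was lower at 7 weeks with a difference of -0.37 ± 0.09 (adjusted p = 0.000755). Rab43, of the Golgi, was lower with a difference of -0.17 ± 0.06 on average (adjusted p = 0.0199) and passed at no single age, as did none of Rab1b, Rab2b, Rab6a and Rab6b.

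Rab30, a Golgi protein, was the member that fell furthest at any age. Its values at 11 weeks were 6.64, 6.98, 6.45 and 6.00 in Npc1-/- livers, against 7.80, 7.56, 7.23 and 8.37 in Npc1+/+ livers, without overlap. The difference was -1.22 ± 0.24 (adjusted p = 3.78e-05), which is 2.33-fold lower. At 3 weeks it stood the other way, at 0.60 ± 0.24, which missed the threshold (adjusted p = 0.0771), and its slope was -0.12 ± 0.03 per week (adjusted p = 0.000712). The averaged difference of -0.22 ± 0.10 passed narrowly (adjusted p = 0.0473) and was lost in 27 of 48 fits that left out 1 array, with adjusted p up to 0.0895, and it was also lost without the 3 arrays with signal of other organs (adjusted p = 0.144) and without all 10 arrays with raised pancreas or muscle markers (adjusted p = 0.0836).

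Of the 11 secretory and lysosome-related organelle genes, 5 were tested. On average 3 passed, where 52.6% of all tested genes did: Rab3d and Rab44 higher, Rab27a lower. Rab3d, of regulated secretion, was higher by 0.33 ± 0.03 (adjusted p = 5.71e-11). The 11-week mice read 6.62, 6.69, 6.59 and 6.55 in Npc1-/- livers, against 6.13, 6.00, 5.80 and 6.06 in Npc1+/+ livers, a difference of 0.61 ± 0.08. It passed at 3, 5, 9 and 11 weeks, while Rab44 and Rab37 passed at no single age. Rab27a, which docks secretory granules and multivesicular bodies at the plasma membrane, was lower with a difference of -0.20 ± 0.05 on average (adjusted p = 0.000282). At 3 weeks it read 6.33, 6.29, 6.44 and 6.68 in Npc1-/- livers, against 6.92, 6.82, 6.94 and 6.81 in Npc1+/+ livers, a difference of -0.44 ± 0.12 that was lost without the 3 arrays with signal of other organs. Rab27a also passed at 9 weeks, with a difference of -0.34 ± 0.12 (adjusted p = 0.0204), and at no other age.

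Rab32, known from pigment granules, mitochondria and phagosomes, had differences of opposite sign at the first ages, and neither call was firm. It was higher at 1 week by 0.40 ± 0.11 (adjusted p = 0.0187) and lower at 3 weeks with a difference of -0.33 ± 0.11 (adjusted p = 0.0313). At 1 week it read 6.67, 7.13, 6.72 and 7.14 in Npc1-/- livers, against 6.46, 6.66, 6.40 and 6.56 in Npc1+/+ livers. From 5 weeks on it did not pass. The 3-week call was lost without the 3 arrays with signal of other organs, where the difference was -0.27 (adjusted p = 0.246). The calls at 1 week (Rab32, Rab12 and Rab2a) each lost the threshold when 1 of several 1-week arrays was left out, and all 3 without mice 3 and 4 of the Npc1+/+ group or without the 10 arrays with raised pancreas or muscle markers. Of the other or less known members, Rab40c, part of a ubiquitin ligase, was lower at 9 and 11 weeks with a difference of -0.22 ± 0.08 each, and Rab23, Rab28 and Rab40b passed at no age.

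**Figure D4:**
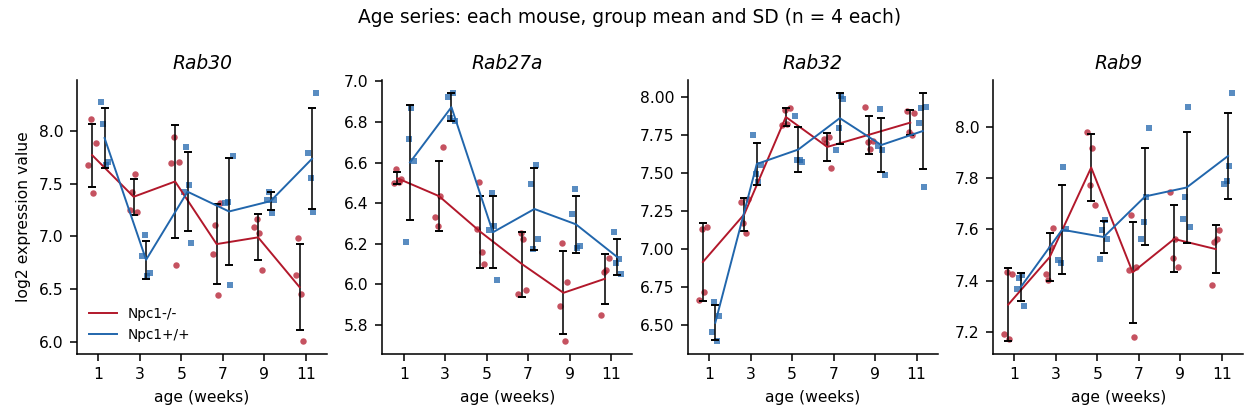
The x axes give age in weeks and the y axes the log2 expression value of Rab30, Rab27a, Rab32 and Rab9 in each mouse (Npc1-/- red circles, Npc1+/+ blue squares) with group mean and SD (n = 4 each). Rab30 lies lower in all 4 Npc1-/- mice at 11 weeks, and the Rab32 means lie above at 1 week and below at 3 weeks in Npc1-/- livers.

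The slope of the difference per week passed for 17 members, 13 upward and 4 downward, where 28.9% of all tested genes passed (14.9% upward, 14.0% downward). Its variation between ages passed for 12, where 27.7% did. Beside Rab8b, Rab7b, Rab31, Rab34 and Rab30, the next upward slopes by size belonged to Rab12 and Rab2a, and small downward ones to Rab9, Rab24 and Rab40c. Without mice 3 and 4 of the 1-week Npc1+/+ group 11 members passed, 10 upward and 1 downward, so most downward calls were lost. Without mouse 4 alone the count was also 11.

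Macrophage markers moved over the same ages. All 15 on the array were higher in Npc1-/- livers on average, and none is listed at 0. Their mean level was 7.68 to 7.98 in Npc1-/- mice and 7.72 to 7.87 in Npc1+/+ mice at 1 week, and 9.21 to 9.36 in Npc1-/- mice and 6.93 to 7.11 in Npc1+/+ mice at 11 weeks. The 10 markers of lipid-laden macrophages were also all higher, at 9.83 to 10.10 in Npc1-/- mice and 5.70 to 6.13 in Npc1+/+ mice at 11 weeks. Of 8 markers of resident Kupffer cells 7 were lower, at 5.67 to 6.20 in Npc1-/- mice and 7.13 to 7.20 in Npc1+/+ mice at 11 weeks. Neutrophil markers stood at 5.32 to 5.97 in Npc1-/- mice and 4.76 to 4.85 in Npc1+/+ mice at 11 weeks, with 7 of 8 called higher, and stellate cell markers averaged 7.88 and 7.64, with 5 of 10 higher and 1 lower. Sinusoidal endothelial markers stood at 7.84 to 8.09 in Npc1-/- mice and 8.18 to 8.36 in Npc1+/+ mice, with 7 of 10 lower. Lyve1 of that list went the other way, higher by 0.71 ± 0.16 at 11 weeks. Hepatocyte markers averaged 13.04 and 13.19, without overlap and with 3 of 9 lower. Erythroid markers stood at 5.45 to 6.04 in Npc1-/- mice and 6.29 to 6.52 in Npc1+/+ mice, with 2 of 6 lower. The part of these cells in the differences of Rab8b, Rab7b, Rab31, Rab34 and Rab3d was not tested.

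The regulators of the Rab cycle were read from 4 lists. Of 33 exchange factors on the array 19 passed on average, 17 higher and 2 lower in Npc1-/- livers, with a median difference of 0.11. Of 35 GTPase-activating proteins 16 passed, 12 higher and 4 lower, with a median of 0.06. Of 45 effectors 23 passed, 19 higher and 4 lower, with a median of 0.07. Of 7 genes of the membrane cycle 4 passed, 2 higher and 2 lower. The median over all genes was -0.01 and 52.6% of tested genes passed, 26.0% higher and 26.6% lower. The list sizes count genes on the array, and not all were tested. Untested were the exchange factor Dennd2c, the GTPase-activating protein Tbc1d4, and the effectors Sytl2, Sytl3, Exph5, Unc13d, Rims1 and Rims2. Shares of the tested genes are thus larger than these sizes give, most of all for effectors.

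Among effectors, Rilpl2, which binds Rab8 family proteins, was higher by 0.98 ± 0.05 on average and by 1.92 ± 0.11 at 11 weeks (adjusted p = 1.71e-18). Plin3, a lipid droplet coat protein also described as a Rab9 partner, was higher by 0.98 ± 0.05. Sytl5, a Rab27 partner, was higher by 0.71 ± 0.07. Ankrd27, which binds Rab32 and Rab38, was higher by 0.48 ± 0.04. Appl1, on Rab5 endosomes, was higher by 0.45 ± 0.05, and Plekhm1, a Rab7 partner in lysosome fusion, by 0.44 ± 0.04. The effectors that passed as lower were Rilp (-0.27 ± 0.05), Uso1 (-0.17 ± 0.05), Fyco1 (-0.13 ± 0.05) and Rabepk (-0.09 ± 0.04).

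Among exchange factors, Hps4, a subunit of the factor for Rab32 and Rab38, was higher by 0.38 ± 0.05, and Rab3il1, which acts on Rab8 proteins, by 0.38 ± 0.04. The DENN-domain genes Dennd2a, Dennd5a, Dennd4b and Dennd4c were higher by 0.31 to 0.37, and Dennd2a by 0.88 ± 0.08 at 11 weeks. Of the TBC-domain genes, Tbc1d9 was higher by 0.55 ± 0.04 and by 1.08 ± 0.09 at 11 weeks (adjusted p = 2.75e-13), Tbc1d24 by 0.51 ± 0.05 and Tbc1d1, known from glucose transport in muscle, by 0.40 ± 0.03. Grtp1 was lower with a difference of -0.41 ± 0.04. Both genes of the enzyme that attaches the lipid anchor to Rab proteins were lower, Rabggta with a difference of -0.29 ± 0.05 (adjusted p = 5.03e-07) and Rabggtb with a difference of -0.13 ± 0.05 (adjusted p = 0.0192). Chml, which presents Rab proteins to that enzyme, was higher by 0.12 ± 0.05.

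Rab genes also changed with age in wild-type liver. In Npc1+/+ mice 23 members varied with age, where 53.3% of all tested genes did. Between 3 weeks and 1 week 15 passed, 6 higher and 9 lower at 3 weeks, where 36.9% of tested genes passed (15.4% higher, 21.5% lower). The largest falls were in Rab30 (-1.16 ± 0.24), Rab34 (-1.01 ± 0.10), Rab8b (-0.84 ± 0.13) and Rab31 (-0.68 ± 0.11), and the largest rises in Rab32 (1.04 ± 0.11) and Rab4a (0.67 ± 0.10). Rab32 read 7.75, 7.49, 7.44 and 7.55 in 3-week Npc1+/+ livers, against 6.46, 6.66, 6.40 and 6.56 in 1-week Npc1+/+ livers. Rab34 read 6.37, 6.36, 6.19 and 6.20 at 3 weeks, against 7.54, 7.37, 7.07 and 7.19 at 1 week. The mean level of macrophage markers was 6.74 to 7.08 at 3 weeks, against 7.72 to 7.87 at 1 week, in these mice. Neutrophil markers averaged 5.54 at 3 weeks and 7.76 at 1 week, stellate cell markers 8.23 and 8.82, erythroid markers 6.61 and 7.19, platelet and mast cell markers 5.00 and 5.82, and lymphocyte markers 4.77 and 5.35, in the same order of ages. The part of these cells was not tested.

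Between 11 and 3 weeks in Npc1+/+ mice 6 members passed, 3 higher and 3 lower at 11 weeks, where 10.2% of tested genes did (6.44% higher, 3.74% lower). Rab30 was higher by 0.96 ± 0.24, Rab5b by 0.33 ± 0.08 and Rab13 by 0.30 ± 0.10, and Rab27a was lower with a difference of -0.74 ± 0.12, Rab8b with a difference of -0.50 ± 0.13 and Rab34 with a difference of -0.39 ± 0.10. Without the 3 arrays with signal of other organs only Rab30 and Rab27a passed, and without all 10 arrays with raised pancreas or muscle markers only these and Rab8b. The comparisons at 3 weeks, of 3 with 1 week and of 11 with 3 weeks share the 3-week Npc1+/+ mice.

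Npc1 oligo was set against control oligo in adult mice. Without NAC 13 members passed, 11 higher and 2 lower under Npc1 oligo, where 22.6% of tested genes passed, 14.7% higher and 7.88% lower. With NAC 9 passed, 5 higher and 4 lower, where 25.7% did (11.0% higher, 14.7% lower). The medians over the 59 were 0.03 without NAC and 0.02 with NAC, beside a median over all genes of -0.03 without NAC. Higher with and without NAC were 5 members, Rab8b, Rab7b, Rab30, Rab35 and Rab22a, and lower in both was Rab27a. The share of all tested genes called in both was not counted, so these counts cannot be set against other genes.

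Rab8b read 7.73, 8.00, 7.87, 7.77 and 7.93 in Npc1 oligo livers, against 7.55, 7.23, 7.52, 7.29 and 7.33 in control oligo livers, without overlap. The difference was 0.48 ± 0.09 without NAC (adjusted p = 0.000448) and 0.46 ± 0.09 with NAC (adjusted p = 0.000482), where the groups overlapped. Rab7b read 5.57, 5.55, 5.47, 5.68 and 6.15 in Npc1 oligo livers, against 5.14, 4.99, 5.08, 4.96 and 4.83 in control oligo livers. Its difference was 0.68 ± 0.13 without NAC (adjusted p = 0.000197) and 0.43 ± 0.13 with NAC. Here too Rab7b passed the filter only through mice in which it is high, with 8 of 10 arrays of the Npc1 oligo groups and 0 of the other 20 above 5.54; with no filter the adjusted p was 0.000251 without NAC. With NAC the groups overlapped through mouse 3 of Npc1 oligo + NAC, at 5.04, and the call was lost without mouse 4 of that group (adjusted p = 0.0508).

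Macrophage markers had mean levels of 8.28 to 8.72 in Npc1 oligo mice and 7.60 to 7.92 in control oligo mice, with 10 of 15 past the threshold and higher. Markers of lipid-laden macrophages stood at 7.71 to 8.93 in Npc1 oligo mice and 6.31 to 6.64 in control oligo mice, with 10 of 10 higher. In Npc1 oligo + NAC mice they stood at 8.73 to 8.96 except mouse 3, at 6.78, the same mouse that was lowest in Rab7b, Rab31, Rab34, Rab30 and Rab8b. That array stood apart more widely: it was the lowest of its 5 in 33 of the 59 Rab genes and in 13 of the 17 lists read here, hepatocyte markers (12.84, others 13.01 to 13.04) and Rab effectors (6.45, others 6.62 to 6.68) among them. Without it 11 members passed for the oligo with NAC, and the Rab7b difference was 0.59. Hepatocyte markers were lower with NAC in all Npc1 oligo + NAC mice, at 12.84 to 13.04, against 13.21 to 13.31 in control oligo + NAC mice, with 5 of 9 past the threshold. The part of these cells was not tested. Rab31 and Rab34 did not pass here: their differences were 0.20 ± 0.12 and -0.12 ± 0.12 without NAC.

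Rab27a had the largest fall of the family in the 12-week set. It read 6.83, 6.90, 6.74, 6.85 and 6.78 in Npc1 oligo livers, against 7.58, 7.49, 7.90, 7.67 and 7.50 in control oligo livers. With NAC it read 6.73, 6.80, 6.92, 6.84 and 6.58 in Npc1 oligo + NAC livers, against 7.60, 7.90, 7.68, 7.73 and 7.50 in control oligo + NAC livers. Every Npc1 oligo mouse was below every control oligo mouse, with differences of -0.81 ± 0.10 (adjusted p = 4.22e-07) and -0.91 ± 0.10 (adjusted p = 3.2e-08), 1.75-fold and 1.88-fold lower.

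Rab30 rose under Npc1 oligo, by 0.69 ± 0.20 without NAC (adjusted p = 0.0124) and 1.08 ± 0.20 with NAC (adjusted p = 0.00012). It read 7.75, 7.26, 7.68, 8.07 and 8.69 in Npc1 oligo livers, against 7.40, 7.14, 7.14, 6.91 and 7.42 in control oligo livers, with overlap, and the call without NAC was lost when Npc1 oligo mouse 5 was left out (adjusted p = 0.0634). With NAC it read 8.09, 8.48, 7.54, 8.38 and 8.00 in Npc1 oligo + NAC livers, against 7.19, 7.14, 6.35, 6.96 and 7.42 in control oligo + NAC livers, without overlap.

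Rab10, Rab6a, Rab35 and Rab1a were higher under Npc1 oligo without NAC. Rab10 read 9.20, 9.18, 9.28, 9.29 and 9.19 in Npc1 oligo livers, against 8.78, 8.46, 8.81, 8.64 and 8.71 in control oligo livers, a difference of 0.55 ± 0.09 (adjusted p = 2.34e-05). Yet fasted and untreated livers, at means of 9.12 ± 0.08 and 9.12 ± 0.18 (SD, n = 5 each), stood near the Npc1 oligo level, and control oligo was itself lower than untreated with a difference of -0.44 ± 0.09 (adjusted p = 0.00044). Rab6a, of retrograde Golgi transport, was higher by 0.41 ± 0.08 and Rab35 by 0.37 ± 0.08, and Rab35 was lower under control oligo than in untreated livers with a difference of -0.33 ± 0.08 (adjusted p = 0.00228). The 2 comparisons share the control oligo mice, so a low control oligo level raises 1 difference as it lowers the other.

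With NAC, Rab4b was lower under Npc1 oligo with a difference of -0.41 ± 0.08 (adjusted p = 0.000522), Rab32 with a difference of -0.31 ± 0.08 and Rab5b with a difference of -0.24 ± 0.06. Rab4b read 7.35, 7.32, 7.06, 7.62 and 7.26 in Npc1 oligo + NAC livers, against 7.73, 7.87, 7.63, 7.75 and 7.66 in control oligo + NAC livers.

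**Figure D5:**
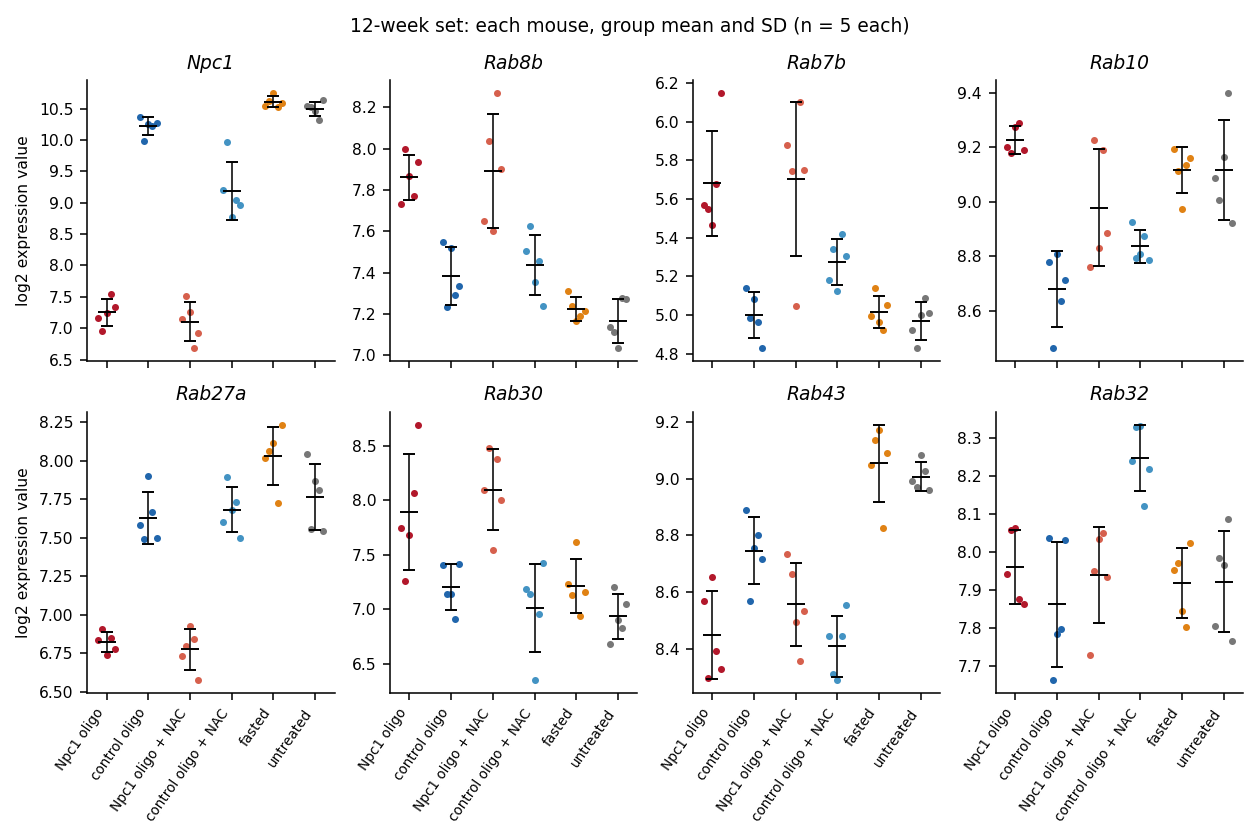
The y axes give the log2 expression value of Npc1 and 7 Rab genes in each mouse of the 12-week set, and the x axes the 6 groups, with group mean and SD (n = 5 each). Rab27a lies lower in both Npc1 oligo groups than in both control oligo groups without overlap, Rab30 has higher means there, and Rab10 is lowest under control oligo alone.

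NAC by itself moved few Rab genes. Under control oligo 2 passed, where 8.50% of tested genes did (6.09% higher, 2.41% lower): Rab32 was higher by 0.39 ± 0.08 (adjusted p = 0.00198) and Rab43 lower with a difference of -0.34 ± 0.08 (adjusted p = 0.00752). Rab32 read 8.24, 8.33, 8.33, 8.12 and 8.22 in control oligo + NAC livers, against 8.04, 7.66, 7.79, 7.80 and 8.03 in control oligo livers, without overlap. Under Npc1 oligo 1 passed, where 7.15% did (2.88% higher, 4.27% lower): Rab17, of transcytosis in epithelial cells, at 0.25 ± 0.08 (adjusted p = 0.0465), a call lost in 19 of 30 fits that left out 1 array, among them the fit without fasted mouse 3.

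The oligo difference itself depended on NAC for 3 members, 1 upward and 2 downward, where 4.83% of tested genes passed (1.15% upward, 3.68% downward). Rab43 had an interaction of 0.45 ± 0.11 (adjusted p = 0.0184): it was lower under Npc1 oligo with a difference of -0.30 ± 0.08 without NAC, and the difference with NAC was 0.15 ± 0.08. Rab32 had one of -0.41 ± 0.11 (adjusted p = 0.0281) and Rab10 one of -0.41 ± 0.12 (adjusted p = 0.0472). The Rab32 call was lost in 5 and the Rab10 call in 21 of 30 fits that left out 1 array, with adjusted p up to 0.0653 and 0.104; without mouse 3 of Npc1 oligo + NAC the Rab10 value was -0.37 (adjusted p = 0.0833). The NAC comparisons, the oligo comparisons and the interaction share their mice.

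Fasting overnight gave no call by limma. Of the members 0 passed, where 0.529% of all tested genes did (0.210% higher, 0.319% lower). At an unadjusted p under 0.05 there were 5 members, and the share of all tested genes at that cut was not counted. The largest difference was that of Rab30, at 0.28 ± 0.20, and Rab27a stood at 0.27 ± 0.10 (adjusted p = 0.318). Rab27a averaged 8.03 ± 0.19 in fasted livers and 7.76 ± 0.21 in untreated livers (SD, n = 5 each), with overlap.

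Control oligo was set against untreated, which fasted livers share as their control. All 7 members that passed were lower under control oligo, where 26.3% of tested genes passed, 5.05% higher and 21.3% lower. They were Rab10, Rab35, Rab5b (-0.32 ± 0.06), Rab4a (-0.27 ± 0.08), Rab43 (-0.26 ± 0.08), Rab1b (-0.23 ± 0.08) and Rab11b (-0.18 ± 0.06). Rab5b read 9.31, 9.21, 9.21, 9.29 and 9.23 in control oligo livers, against 9.62, 9.41, 9.59, 9.77 and 9.47 in untreated livers, without overlap. Without control oligo mouse 2 the count was 4, and Rab43 lost its call (adjusted p = 0.0609).

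The genotype difference at 11 weeks was set against the oligo difference without NAC in 1 fit of all 78 arrays. It differed for 10 members, 6 more positive and 4 more negative at 11 weeks, where 27.7% of tested genes passed (11.7% more positive, 16.0% more negative). Rab8b was more positive by 1.64 ± 0.16 (adjusted p = 5.04e-13), Rab7b by 1.23 ± 0.18, Rab31 by 0.96 ± 0.17 and Rab34 by 0.88 ± 0.15. For Rab8b and Rab7b both differences were positive, and for Rab31 and Rab34 only the 11-week one passed. Rab30 was opposite in sign, lower at 11 weeks in Npc1-/- livers and higher under Npc1 oligo, and the gap was -1.91 ± 0.32 (adjusted p = 2.7e-06). Rab27a fell under Npc1 oligo but stood at -0.11 ± 0.12 at 11 weeks, a gap of 0.70 ± 0.15 (adjusted p = 0.000236). Strain, age, duration of Npc1 loss and tissue storage differ between the 2 experiments and cannot be told apart here.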

How the data were processed

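The 78 arrays, of an Affymetrix mouse design, each measured liver RNA of 1 female mouse. The authors deposited log2 expression values of 35556 probe sets. The submitters' processing notes name RMA and Partek 6.5, with no role or order given for either, and the scaling between arrays is not given in the sources used here. Array medians were 5.35 to 5.65, and no raw intensities or detection calls were used. Livers of the age series were frozen on dry ice per the labels' protocols; those of the 12-week set were frozen or kept in RNAlater, without saying which.

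Of the probe sets, 21789 had 1 gene symbol, 1621 several and 12146 were not listed in the probe table. A gene was tested when 4 or more arrays of a fit had it above 5.54, the median value of the table. This kept 12638 genes for the age series, 11900 for the 12-week set and 12748 for the fit of 78 arrays. Differences were fitted with limma 3.58.1 in R 4.3.3 (lmFit with 1 mean per group, eBayes), in 1 fit for each experiment. Two-sided tests were used, with Benjamini-Hochberg adjusted p-values over all genes tested in a comparison and a threshold of 0.05. The fit was tested on simulated data. The number of mice sets the precision.

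Groups came from the labels. The Rab genes, their compartments, the regulator and marker lists, and the comparisons were chosen with earlier results of these data known. Genes named with values are Npc1, the 12 members with the largest averaged genotype difference among those past the threshold, up to 6 with the largest in each further comparison, up to 6 of each regulator list, and, chosen after their values were seen, the smaller calls listed for completeness. Promoters and chromosomes came from RefSeq, GRCm38.p6; 48 of 59 members matched. Alternatives are given in the closing section.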

Additional observations from a re-analysis of the deposited data

Results flagged for a closer look

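Among 234 groups of 4 or 5 mice checked for Npc1 and 12 Rab genes, 11 held a mouse far from the others of its group; the rule's critical value is set so that chance flags about 1 in 20 groups. Of these mice, pancreas markers were raised in 3-week Npc1+/+ mouse 2 (8.29), 5-week Npc1+/+ mouse 1 (6.18) and fasted mouse 3 (6.22), against a median of 4.94 over all arrays, and their part was not tested. In Npc1-/- livers they were Rab8b at 1 week, mouse 1 (8.08, others 8.23 to 8.25), Rab7b at 5 weeks, mouse 3 (5.32, others 5.71 to 5.79), and Rab3d at 3 weeks, mouse 2 (5.93, others 6.13 to 6.16) and at 5 weeks, mouse 1 (6.48, others 6.17 to 6.20). In Npc1+/+ livers they were Rab7b at 3 weeks, mouse 2 (4.71, others 5.02 to 5.06), Rab31 at 3 weeks, mouse 3 (6.81, others 6.49 to 6.51), Rab34 at 9 weeks, mouse 2 (5.98, others 6.23 to 6.25), and Rab43 at 5 weeks, mouse 1 (8.42, others 9.13 to 9.21). In the 12-week set they were Rab4a in fasted mouse 5 (7.73, others 7.90 to 7.94), Rab5a in fasted mouse 3 (9.28, others 9.43 to 9.47) and Rab31 in untreated mouse 1 (6.47, others 6.81 to 6.83).

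The genotype difference varied between ages by a moderated F test for Rab8b (adjusted p = 8.33e-13), Rab7b (adjusted p = 8.3e-11), Rab31 (adjusted p = 2.2e-06), Rab2a (adjusted p = 0.000118), Rab34 (adjusted p = 0.000277), Rab30 (adjusted p = 0.00132), Rab32 (adjusted p = 0.00254), Rab1a (adjusted p = 0.00282), Rab12 (adjusted p = 0.00341), Rab3d (adjusted p = 0.00807), Rab9 (adjusted p = 0.0101) and Rab21 (adjusted p = 0.0188). The oligo difference varied with NAC for Rab43 (adjusted p = 0.0184), Rab32 (adjusted p = 0.0281) and Rab10 (adjusted p = 0.0472). The genotype difference at 11 weeks differed from the oligo difference for Rab8b (adjusted p = 5.04e-13), Rab7b (adjusted p = 6.46e-08), Rab30 (adjusted p = 2.7e-06), Rab34 (adjusted p = 4.16e-06), Rab31 (adjusted p = 4.78e-06) and Rab27a (adjusted p = 0.000236).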

How the results depend on the processing

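Each of 93 named differences was recomputed under up to 12 other settings and with each array left out. Of these 65 kept their direction and side of the threshold under all settings run, 28 lost the threshold under at least 1, and 0 changed sign. Of the 20 counts of members past the threshold, 10 stayed within 1.5 times under every setting other than leaving out an array. Without mice 3 and 4 of the 1-week Npc1+/+ group the 1-week count was 0 and the slope count 11. Without the 3 arrays with signal of other organs it was 1 at 1 week, 2 at 3 weeks and 2 for 11 against 3 weeks in Npc1+/+ mice. Without all 10 arrays with raised pancreas or muscle markers, a setting chosen after seeing the data, it was 0 at 1 week, 1 at 3 weeks, 3 for 11 against 3 weeks and 0 for NAC under Npc1 oligo. For NAC under Npc1 oligo the count was 0 with no filter, 2 with quantile normalization, 2 with array weights and 0 with the replicate number as a block. Quantile normalization gave 14 for the oligo with NAC and 4 for NAC under control oligo, where median centring gave 5. Array weights gave 1 for fasting and 11 for control oligo against untreated, and all 78 arrays in 1 fit gave 1 for the interaction.

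With 1 array left out, the count ranged over 0 to 4 at 1 week, 8 to 15 at 9 weeks (8 without Npc1-/- mouse 1), 11 to 18 for the slope (11 without 1-week Npc1+/+ mouse 4), 2 to 4 for NAC under control oligo, 0 to 1 under Npc1 oligo, 1 to 5 for the interaction, and 4 to 9 for control oligo against untreated. The cause of these shifts was not tested. No comparison had the correlation of every same-numbered pair over 0.1, but 2 of 4 pairs were over it at 7 weeks and at 9 weeks. This check cannot exclude that some same-numbered mice were paired, and litters were not part of the fits. The replicate block changed no other count of calls by over 1.5 times. With 4 or 5 mice a group and no detection calls, small differences of low genes such as Rab7b in Npc1+/+ livers are the least certain.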

Other observations

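Rab27a stood at different levels in the 2 experiments: 6.13 ± 0.09 in 11-week Npc1+/+ livers (SD, n = 4) and 7.76 ± 0.21 in untreated 12-week livers (SD, n = 5), with no test. Npc1 stood at 10.27 ± 0.25 and 10.49 ± 0.12 in the same groups. Strain, storage and handling differ between these mice and cannot be told apart. Rab17 stood at 7.58 ± 0.34 and 7.98 ± 0.12 there, and Rab8b at 6.81 ± 0.31 and 7.17 ± 0.11.

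Control oligo livers also stood apart from untreated livers in macrophage markers, at 7.60 to 7.92 in control oligo mice and 7.14 to 7.60 in untreated mice, and in resident Kupffer cell markers, at 7.60 to 7.92 in control oligo mice and 7.07 to 7.59 in untreated mice.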
